A study of Mus musculus with 12 samples.

Results

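Partial reprogramming of C790 cells, a single Nras-mutant mouse melanoma line, was described from 6 of the 12 arrays of the series, namely the 3 arrays of +dox DMSO day 20 and the 3 of -dox DMSO day 20. Membership followed the sample labels and no measured value. All cells of both groups carried a lentiviral vector that encodes murine Oct4, Sox2 and Klf4 together with blasticidin resistance under a doxycycline-dependent promoter, and a further vector for the constitutively expressed activator M2 and mCherry. The +dox cells were kept with doxycycline for 20 days with blasticidin selection on day 3, while the -dox cells grew in medium without doxycycline throughout, and both then received the solvent DMSO for 72 h. Whether the -dox cells were also selected is not stated in the sources used here, and the presence of doxycycline and the induction of the factors cannot be told apart in these arrays. The remaining 6 arrays hold the same cell states after trametinib, a MEK inhibitor, and serve below only as a comparison. The question of the comparison is which genes differ between partially reprogrammed and control melanoma cells in the absence of drug.

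Oct4 (gene Pou5f1), Sox2 and Klf4 are transcription factors that together can return differentiated cells to a pluripotent state. Exposure that stops short of this leaves cells that have lost parts of their former programme without a stable stem cell identity. Melanoma cells are known to move between a pigmented, differentiated state and a mesenchymal, invasive state that makes much extracellular matrix. Loss of mesenchymal genes is an early step in the reprogramming of fibroblasts.

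Every value below is a log2 RMA level, the brightness of 1 probe set on a log2 scale, for 1 of 18193 genes. Levels under 4.86, the 95th percentile of olfactory, vomeronasal and taste receptor probe sets, are called under the background level, and 6072 genes lay there in both DMSO groups. A change from or to a group under this level is given as at least the distance between the higher mean and the background level. Genes are said to have risen or fallen at an adjusted p under 0.05 from limma. The labels do not say whether the 3 arrays of a group came from separate cultures, and all p-values therefore rest on the scatter among arrays alone, which may be technical. The array of -dox DMSO replicate 1 stood apart. Its correlation with the other -dox arrays over all genes was 0.979 and 0.984, against 0.997 between those, and 1029 genes lay over 1 log2 unit from the mean of the other arrays of its group, against 70 to 366 genes for the other 5 arrays. The tests of the DMSO effect below, with the list counts and medians, were therefore repeated without it. For the comparisons with trametinib only the total counts of genes were repeated. Counts of genes without overlap and counts at an unadjusted p used all arrays. The melanoma label was checked against pigment cell genes. Mitf and Sox10, factors of the melanocyte lineage, and Pmel, a melanosome protein, were above the background level in both groups, but the pigment enzymes Tyr, Tyrp1 and Dct and the melanosome antigen Mlana were under it on all 6 arrays.

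At this threshold 1118 genes (6.15% of all tested) differed between +dox and -dox cells under DMSO, of which 522 rose (2.87%) and 596 fell (3.28%). With a fold change over 2 as well, 474 genes (2.61%) differed, with 201 rises (1.1%) and 273 falls (1.5%), and over 4-fold the numbers were 48 and 73. Among the 12121 genes above the background level in at least 1 group, 4.11% rose and 4.73% fell. Each list count below is to be read beside the shares of all tested genes. Without -dox DMSO replicate 1, 405 genes rose (2.23%) and 722 fell (3.97%), and 785 of the 1118 genes were called again in the same direction. All 1118 kept their sign. With each array centred on its median, 1148 genes rose and 464 fell, so the split between rises and falls, 46.7% rises as reported and 71.2% after centring, rests on the scaling. Of the 125 genes past the test that the naming rule picked, 69 also passed without each of the 6 DMSO arrays in turn. For several of the others the highest adjusted p with 1 DMSO array left out is given where they are described.

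The reprogramming factors themselves were read first. Pou5f1 measured 4.30, 4.73 and 4.87 on the -dox arrays and 5.55, 5.34 and 5.46 on the +dox arrays. The groups did not overlap, and Pou5f1 rose by at least 0.59 from a -dox mean under the background level (adjusted p = 0.0155 from limma, 0.0604 without +dox DMSO replicate 3). Sox2 measured 6.48, 8.07 and 7.65 in -dox cells and 6.46, 5.64 and 5.51 in +dox cells, all +dox arrays being lower than any -dox array. Its change of -1.53 (standard error 0.48) did not pass the test (adjusted p = 0.0909), but did without -dox DMSO replicate 1 (change -1.99, adjusted p = 0.0303). Klf4 measured 8.90, 9.64 and 9.81 in -dox cells and 9.46, 9.27 and 9.16 in +dox cells, with a change of -0.15 (adjusted p = 0.798). Its groups overlapped only through -dox DMSO replicate 1. Without that array every +dox array was lower and the change was -0.43, which did not pass the test. The positions of these probe sets relative to the vector sequence are not given in the sources used here, and probe sets of this array type usually lie at the 3′ end of a transcript, so these values do not check the induction of the transgenes. Fut4, an enzyme that can make the SSEA-1 antigen, was under the background level on all 6 arrays, and the antigen itself was not measured.

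Of the 35 measured genes of the pluripotency network, 3 rose and 0 fell, while 17 were under the background level in both groups. At an unadjusted p under 0.05 from limma 6 were higher and 3 lower. Dppa2, a chromatin protein of early embryos and germ cells, measured 5.05, 7.36 and 6.20 in -dox cells and 8.77, 8.88 and 8.81 in +dox cells. It rose by 2.62 on the log2 scale (adjusted p = 0.0263), without overlap, and both of its probe sets differed by 2.62 and 2.66. Klf5, a Krüppel-like factor of stem cells and epithelia, rose by 1.69 and Fbxo15, a target of Oct4 and Sox2, by 1.47 (adjusted p = 0.0312 and 0.0274). Without -dox DMSO replicate 1 only Fbxo15 of these 3 kept its call (adjusted p = 0.0113, against 0.0591 for Dppa2 and 0.077 for Klf5), and with 1 other DMSO array left out its adjusted p reached 0.0963. In that fit Nanog, under the background level in both groups, was called lower. Nanog, Zfp42, Lin28a, Dppa4 and Tdgf1, which mark pluripotent cells, lay under the background level in both groups. None of the 21 measured germline genes passed the test, and none had an unadjusted p under 0.05 from limma.

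The largest rise of all genes was that of Mpzl2, an adhesion protein of epithelia and thymus. It measured 3.49, 3.43 and 3.61 on the -dox arrays and 11.41, 11.52 and 11.73 on the +dox arrays, and rose by at least 6.69 (adjusted p = 4.99e-10 from limma). All 3 of its probe sets were under the background level in -dox cells and had +dox means of 11.55, 11.13 and 9.49. Srgn, the core protein of serglycin proteoglycans, measured 4.51, 6.47 and 5.77 against 10.12, 9.87 and 10.08, a 21.7-fold rise (log2 change 4.44, standard error 0.49, adjusted p = 6.99e-04). Lpl, lipoprotein lipase, rose 15.1-fold from levels of 5.52 to 6.47 to levels of 9.70 to 10.43 (adjusted p = 5.7e-04). Both genes lay above the background level in the -dox group mean, and their groups were far from overlapping.

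Other large rises were of single genes with various known roles. Myh1 and Myh2, fast myosin heavy chains of skeletal muscle, rose from under the background level by at least 2.40 and 2.78 (adjusted p = 0.00127 and 0.00158). These genes are close in sequence and their probe sets may share transcripts, so which of them rose is uncertain. Of the 3 probe sets of Myh1, 2 were under the background level in -dox cells with +dox means of 7.26 and 6.86, and the other was under it in both groups. Myh3 and Myh4, neighbours of the same family, were under the background level in both groups. Nppb, a natriuretic peptide of heart muscle, measured 8.38, 8.18 and 8.60 in -dox cells and 10.30, 12.53 and 12.52 in +dox cells (change 3.40, adjusted p = 0.0426). It lost its call under the replicate block (adjusted p = 0.0529) and without -dox DMSO replicate 1 (0.0796), with 0.164 the highest value for 1 array left out. Synpo2l, an actin-associated protein of striated muscle, rose by at least 2.70 (adjusted p = 0.0192, up to 0.0727 with 1 array left out).

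Bex1, a small adaptor protein of neurons, measured 2.5, 3.23 and 2.84 in -dox cells and 7.91, 6.62 and 7.07 in +dox cells. It rose by at least 2.34 (adjusted p = 2.07e-04). Of 21 neuronal genes 2 rose and 0 fell, the other being Nefl, a neurofilament, by at least 0.45, and 1 rose without -dox DMSO replicate 1, where Nefl lost its call (adjusted p = 0.0651). Avil, an actin-binding protein of sensory neurons, rose 12.1-fold, from 7.83, 5.53 and 6.18 to 9.75, 10.62 and 9.97 (adjusted p = 0.00217). Here -dox DMSO replicate 1 was the highest control array, and the change grew from 3.60 to 4.26 without it. Ctnnd2, a catenin of neurons, rose by at least 2.44 (adjusted p = 5.02e-04) and Ptpn22, a phosphatase of lymphocytes, by 3.77, which is 13.7-fold (adjusted p = 6.67e-04). Ano4, a membrane protein of the anoctamin family, rose by at least 3.79, Limch1, an activator of non-muscle myosin, by at least 3.42, and the remaining 3 of the 16 largest rises, Glb1l2, She and the succinate receptor Sucnr1, by at least 2.98, 2.52 and 3.24. Limch1 spread little, with -dox levels of 4.38 to 4.52 and +dox levels of 8.16 to 8.39.

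**Figure D1:**
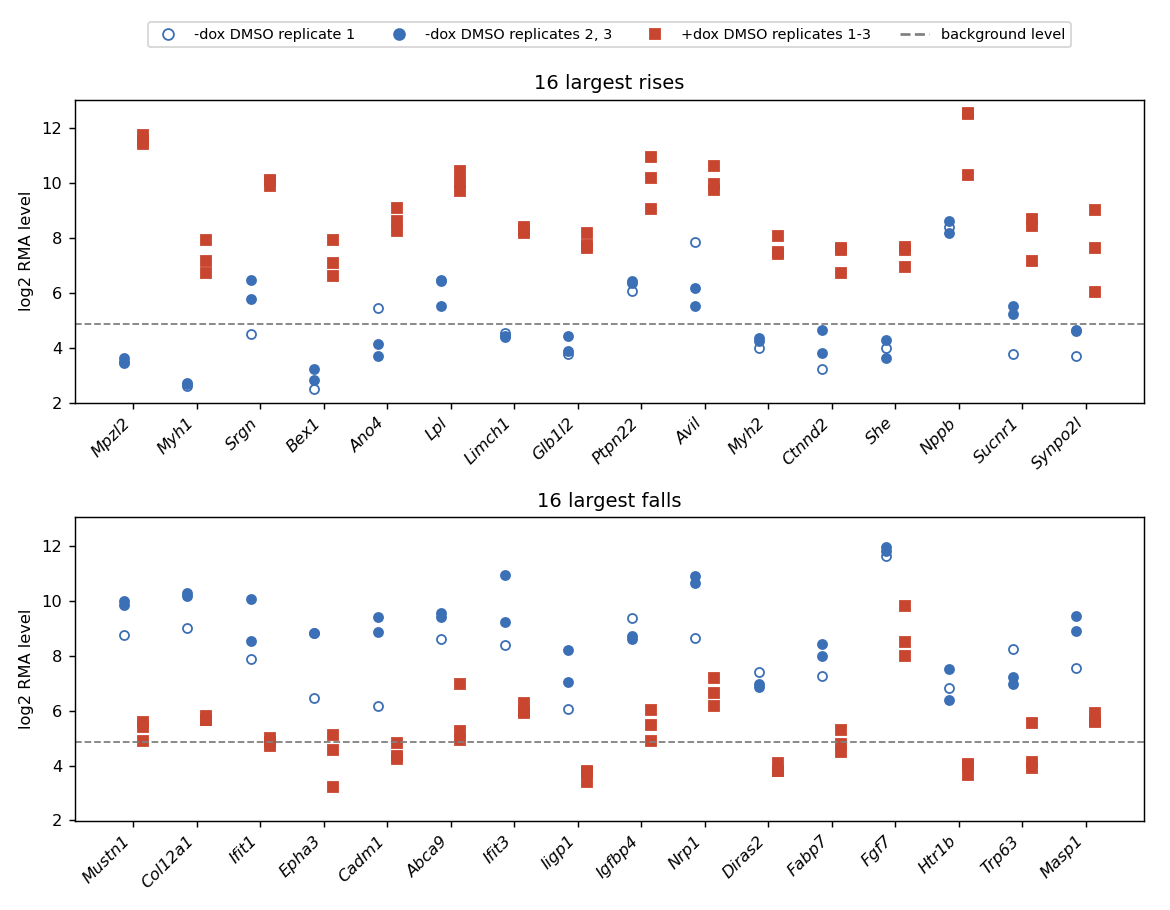
Log2 RMA level on each of the 6 DMSO arrays for the 16 largest rises (top) and 16 largest falls (bottom) past the test, with -dox arrays as blue circles (replicate 1 open), +dox arrays as red squares and the background level of 4.86 dashed. The groups do not overlap for any of these genes, which the naming rule required, and all -dox arrays of Mpzl2 lie under the background line, with its +dox arrays between 11.41 and 11.73.

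The largest measured fall was of Mustn1, a nuclear protein of the musculoskeletal system. It measured 8.75, 9.85 and 9.99 in -dox cells and 5.57, 4.88 and 5.39 in +dox cells, without overlap (log2 change -4.25, standard error 0.36, adjusted p = 2.07e-04 from limma). Fgf7, a growth factor that mesenchymal cells secrete for epithelia, was bright in both groups, at 11.63, 11.97 and 11.81 against 9.82, 7.99 and 8.48 (change -3.04, adjusted p = 8.89e-04). Igfbp4, which binds insulin-like growth factors, fell by 3.42 on the log2 scale, and Nrp1, a co-receptor for semaphorins and VEGF, by 3.40 (adjusted p = 9.93e-04 and 0.00468). Both were higher on all 3 -dox arrays than on any +dox array.

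Fabp7, a fatty acid binding protein of neural crest and melanoma cells, measured 7.25, 7.98 and 8.44 in -dox cells and 5.28, 4.77 and 4.49 in +dox cells, a fall of at least 3.03 (adjusted p = 6.95e-04). Trp63, a p53 family factor of basal epithelia, fell by at least 2.62, the serotonin receptor Htr1b by at least 2.04 and the small GTPase Diras2 by at least 2.20, each to levels near or under the background. Cadm1, an adhesion molecule that acts as a tumour suppressor, measured 6.17, 9.40 and 8.87 in -dox and 4.83, 4.25 and 4.36 in +dox cells. It fell by at least 3.29 (adjusted p = 0.0266), and since replicate 1 was its lowest control array, the fitted change went from -3.67 to -4.66 without that array and its adjusted p to 0.00333. With 1 other DMSO array left out the adjusted p of Cadm1 reached 0.0968. The transporter Abca9 and the complement protease Masp1 fell by 3.46 and 2.93. The other genes of this group, Col12a1, Ifit1, Ifit3, Iigp1 and Epha3, are described with their families below.

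Genes of the type I interferon response were lower in +dox cells as a group. Type I interferons bind a cell surface receptor, and its signal acts through transcription factors at a short response element in the promoters of antiviral genes. Of 37 measured members 19 fell and 0 rose, the other 18 did not reach the threshold, and the median change was -1.14, against 0.01 over all genes. The median level of the list relative to the mean of the -dox arrays was -1.29, -1.15 and -1.05 on the 3 +dox arrays and -0.14, 0.41 and -0.17 on the -dox arrays. For 30 of the 37 members all +dox arrays were lower than any -dox array, which held for 11.1% of all genes.

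Ifit1, an antiviral RNA-binding protein, measured 7.86, 10.06 and 8.53 in -dox cells and 5.01, 4.87 and 4.70 in +dox cells, with a +dox mean just under the background level. It fell by at least 3.96 (adjusted p = 8.15e-04 from limma). Ifit3, its neighbour and partner, measured 8.40, 10.94 and 9.23 against 6.29, 5.98 and 5.92, a change of -3.46 (adjusted p = 0.00729). Ifit3 has a close copy in the mouse genome, Ifit3b, which its probe set may also read. The -dox arrays varied by over 2 log2 units in both genes, with replicate 2 highest and replicate 1 lowest. Samd9l, an interferon-induced translation inhibitor, varied little, at 9.53, 9.72 and 9.53 against 7.20, 7.43 and 7.37 (change -2.26, standard error 0.17, adjusted p = 1.46e-04). Oasl2, of the oligoadenylate synthetase family, fell by 2.69 on the log2 scale and Rtp4, an interferon-induced chaperone of receptors, by 2.60 (adjusted p = 0.00262 and 0.00541).

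The factors that carry the signal fell too. Irf7, the factor that amplifies interferon production, measured 8.98, 10.20 and 9.42 in -dox and 7.45, 7.45 and 7.60 in +dox cells (change -2.03, adjusted p = 0.00683 from limma). Stat2 measured 7.74, 7.99 and 6.92 against 6.10, 6.21 and 6.06 (change -1.43, adjusted p = 0.00372), and Irf9 changed by -1.09 (adjusted p = 0.0382). Usp18, an inhibitor of the receptor's signal that interferon induces, changed by -2.35 and Rsad2 (viperin) by -2.55 (adjusted p = 0.0263 and 0.00592). Several members did not pass. Ifit2, next to Ifit1 in the genome, overlapped between the groups with a change of -0.34 (adjusted p = 0.763), and Bst2, a virus tether, changed by -0.39 (adjusted p = 0.421). Ifnb1, which encodes interferon beta, was under the background level on all 6 arrays.

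Without -dox DMSO replicate 1, 18 members fell and the median was -1.19. The count was lowest, 11, without -dox DMSO replicate 2, the array with the highest levels, where the median was -0.92. Under trametinib the same list had a median change of 0.47 with 0 members past the test of the dox effect in either direction, and the test of the difference between the 2 effects passed for 4 members, all higher under trametinib.

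**Figure D2:**
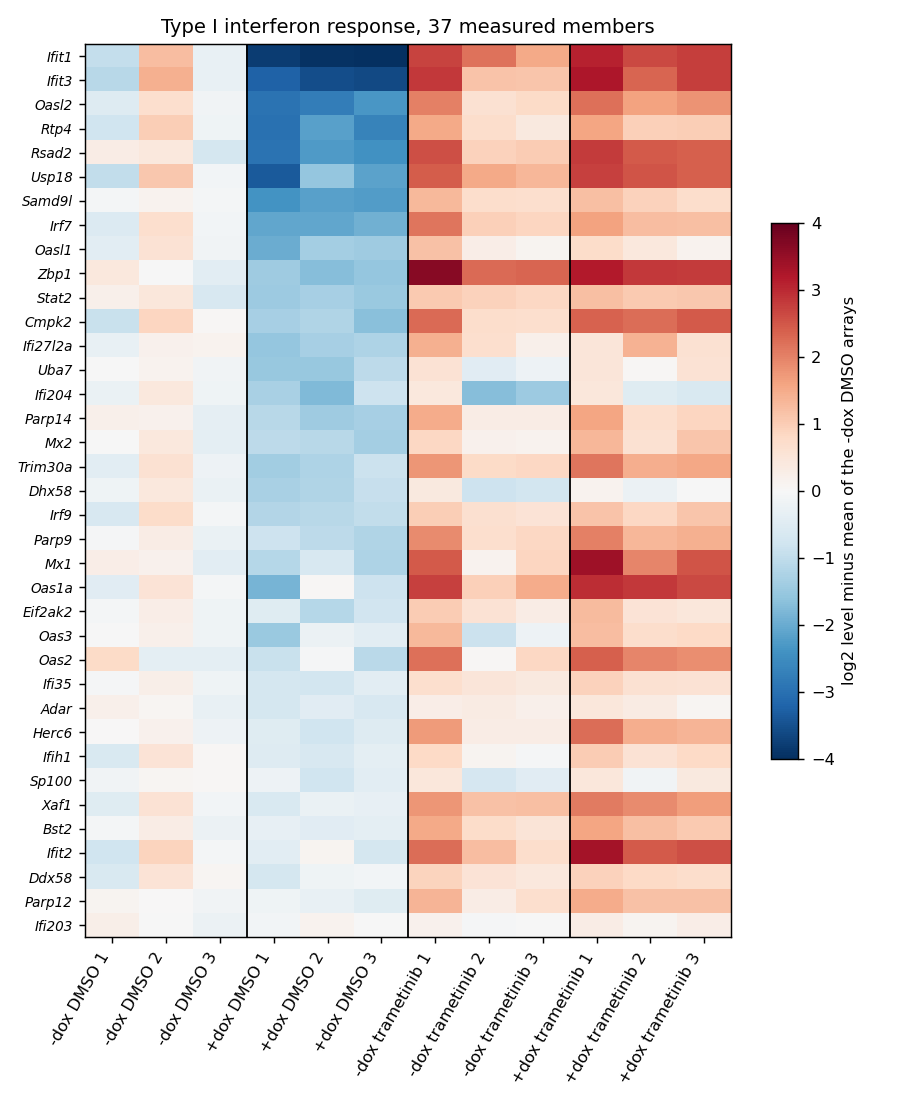
Log2 level minus the mean of the 3 -dox DMSO arrays for the 37 measured members of the type I interferon response (rows, ordered by change) on all 12 arrays (columns), with blue for lower and red for higher and the scale limited to 4 log2 units either way. The 3 +dox DMSO arrays are the ones with most members lower, down to about -4 for Ifit1, while the trametinib arrays of both cell states are mostly higher.

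The response element was looked up in promoters, because these members moved together. Windows of 300 bases, from 250 before to 50 after each RefSeq gene start (build GRCm38.p6), were searched on both strands for its core GAAANNGAAA, where matches may overlap each other. The core was present for 1079 of 27025 genes (3.99%) and for 12 of the 26 interferon members with a window in the table (46.2%). Of the members that fell 4 of 12 held it (33.3%), and of those that did not pass the test 8 of 14 (57.1%). A match is a run of letters and not a shown binding site. The 250 bases before the start are printed for the 3 members with the largest falls among those that hold the core, with the matches in capitals. Ifit1 (chr19:34640639-34640888, plus strand) and Ifit3 (chr19:34583279-34583528, plus strand) hold 2 matches each and Rsad2 (chr12:26456453-26456702, minus strand) holds 1, all on the strand opposite to the gene.
Ifit1: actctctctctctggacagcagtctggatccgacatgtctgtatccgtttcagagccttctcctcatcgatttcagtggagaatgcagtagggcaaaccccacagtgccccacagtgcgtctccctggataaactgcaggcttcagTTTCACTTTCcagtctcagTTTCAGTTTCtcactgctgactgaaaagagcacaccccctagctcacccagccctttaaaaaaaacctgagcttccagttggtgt
Ifit3: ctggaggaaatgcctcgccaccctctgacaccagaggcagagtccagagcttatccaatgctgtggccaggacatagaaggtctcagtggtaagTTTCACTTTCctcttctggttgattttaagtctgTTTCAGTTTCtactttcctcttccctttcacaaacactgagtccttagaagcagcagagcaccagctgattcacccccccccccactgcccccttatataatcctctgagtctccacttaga
Rsad2: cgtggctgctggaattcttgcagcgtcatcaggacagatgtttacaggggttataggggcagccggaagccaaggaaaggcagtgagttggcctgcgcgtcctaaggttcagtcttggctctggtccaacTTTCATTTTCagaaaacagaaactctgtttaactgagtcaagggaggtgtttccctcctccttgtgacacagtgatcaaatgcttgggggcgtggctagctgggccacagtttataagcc

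Neighbouring parts of the interferon programme also held genes that fell. Of 8 measured interferon-inducible GTPases, which attack intracellular pathogens, 3 fell and 0 rose, with a median of -1.03. Gbp2 measured 9.24, 10.17 and 9.46 in -dox and 7.13, 7.04 and 7.63 in +dox cells (change -2.36, adjusted p = 0.00335 from limma), and Gbp3 changed by -2.26 (adjusted p = 0.00746). Iigp1 measured 6.06, 8.19 and 7.03 against 3.81, 3.78 and 3.39, a fall of at least 2.23 (adjusted p = 0.00317). All 3 passed without each DMSO array in turn. Among 13 genes of MHC class I antigen processing, which displays peptides to T cells, 4 fell and 0 rose (median -0.43), namely the immunoproteasome subunit Psmb8 (change -1.78), the transactivator Nlrc5 (at least -0.84), the peptide loading factor Tapbp (-0.84) and the peptide transporter Tap2 (-0.82). Without -dox DMSO replicate 1 only Tapbp kept its call (adjusted p = 0.0218), and without -dox DMSO replicate 3 or without +dox DMSO replicate 2 none of the 13 did.

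Among extracellular matrix genes more fell than rose. Fibrillar collagens and their partners form the interstitial matrix of mesenchymal tissue, while type IV collagen and laminins form the basement membrane. Of 38 measured genes of collagens and matrix, 10 fell and 3 rose (median change -0.58), both with all arrays and without -dox DMSO replicate 1. With 1 DMSO array left out the counts ranged from 7 to 10 and from 2 to 3. The 3 that rose encode basement membrane proteins, but other such genes of the list did not pass, among them Nid1 (change -0.11), Nid2 (0.89), Lama4 (1.09), Lama5 (-0.81) and Lamb1 (-0.61).

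Col12a1, a collagen that decorates fibrils, measured 8.99, 10.28 and 10.18 in -dox cells and 5.67, 5.65 and 5.79 in +dox cells, a 17.3-fold fall (log2 change -4.11, standard error 0.48, adjusted p = 8.89e-04 from limma). The 2 of its 4 probe sets that were bright in -dox cells differed by -4.11 and -2.14, and the other 2 were under the background level. Col3a1, a fibrillar collagen, measured 10.59, 10.91 and 10.65 against 8.70, 7.65 and 7.25, a 7.21-fold fall (adjusted p = 6.95e-04). Col1a1, the main chain of type I collagen, measured 8.68, 8.82 and 8.87 against 6.53, 6.67 and 6.26 (change -2.30, adjusted p = 0.00167). None of these groups overlapped.

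Fn1, fibronectin, was bright in both groups and fell 3.49-fold, from 13.71, 13.63 and 13.71 to 12.25, 11.49 and 11.90 (change -1.80, adjusted p = 5.45e-04). Loxl1, which crosslinks elastin, changed by -2.41, and the small proteoglycans Dcn and Bgn by -2.23 and -2.14 (adjusted p = 8.91e-04, 0.00937 and 0.0149). Col5a1, Col6a3 and the fibulin Fbln2 changed by -2.10, -1.86 and -1.70. In the opposite direction, Col4a1 measured 9.36, 9.92 and 9.44 in -dox cells and 10.97, 11.22 and 11.03 in +dox cells (change 1.5, standard error 0.17, adjusted p = 8.07e-04), and Col4a2 measured 8.07, 8.75 and 8.43 against 9.87, 10.37 and 10.11 (change 1.70, adjusted p = 0.00127). These are the paired chains of type IV collagen, encoded head to head on chromosome 8, where their promoter windows (chr8:11312777-11313076 and chr8:11312555-11312854, GRCm38.p6) share 78 bases. The laminin chain Lamc1 rose by 0.55 (adjusted p = 0.0482).

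**Figure D3:**
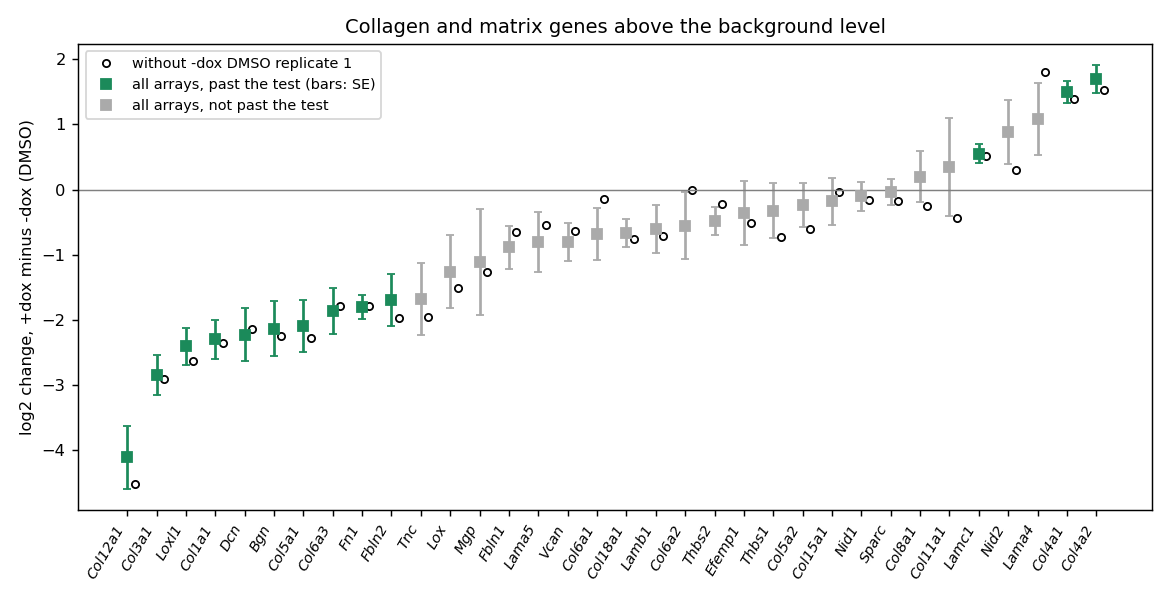
Log2 change (+dox minus -dox under DMSO) of the collagen and matrix genes above the background level, as squares with standard error bars (green past the test, grey not), and the change without -dox DMSO replicate 1 as open circles. The falls from Col12a1 to Fbln2 and the rises of Lamc1, Col4a1 and Col4a2 are of similar size without that array.

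Of 15 factors and effectors of the epithelial-mesenchymal transition, 6 fell and 0 rose (median -0.67). Snai2, a repressor of epithelial genes, measured 10.18, 11.29 and 11.23 in -dox and 9.55, 9.44 and 9.37 in +dox cells (change -1.45, adjusted p = 0.0165 from limma, up to 0.0696 with 1 array left out). Its relatives Snai1 and Zeb2 changed by -1.15 and -0.71 (adjusted p = 0.0184 and 0.0419), and Foxc2, a forkhead factor of mesenchyme, fell by at least 0.67. Tgfbi, a matrix protein that TGF-beta induces, changed by -2.45 from 12.42, 10.80 and 11.28 to 10.26, 8.43 and 8.45 (adjusted p = 0.0142, up to 0.069 with 1 array left out). The factors Twist1 and Zeb1 changed by -0.29 and 0.04 and the mesenchymal filament Vim by 0.03, none past the test. The count was 8 without -dox DMSO replicate 1 and 1 without +dox DMSO replicate 2, where Fn1 alone passed, and the median then lay at -0.79 and -0.51. One of 25 measured epithelial genes rose, the protease inhibitor Spint2 (change 0.52, adjusted p = 0.0261, 0.0526 without -dox DMSO replicate 1), and the epithelial cadherin Cdh1 was under the background level in both groups.

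Markers of other cells were read beside these lists. Of 15 fibroblast markers 6 fell, 4 of them matrix genes named above and the others Pdgfra and Pdgfrb, and 1, Mfap5, rose (adjusted p = 0.0246, 0.0548 without -dox DMSO replicate 1). Their summed level on the log2 scale was 12.75, 13.49 and 13.47 on the -dox arrays and 12.61, 13.17 and 13.39 on the +dox arrays. It overlapped between the groups only through -dox DMSO replicate 1, and without that array every +dox array was lower. Col1a2, Lum, Thy1, Postn, Dpt and Fap, which also define fibroblasts, were under the background level in both groups. Of 29 leukocyte markers 19 were under the background level in both groups, among them Ptprc. Itgam, an integrin of myeloid cells, rose by at least 0.74 (adjusted p = 0.0136, 0.0582 without +dox DMSO replicate 3), Cd3g passed as higher with both means under the background level, and Cd14 changed by -1.42 (adjusted p = 0.042, 0.0559 without -dox DMSO replicate 1). The summed level overlapped, at 10.34 to 10.95 in -dox and 10.38 to 10.69 in +dox cells. The summed level of 10 endothelial markers was 9.82 to 9.91 against 9.55 to 9.71, with Pecam1 and Cdh5 under the background level, and that of 11 keratinocyte markers 8.70 to 9.19 against 8.16 to 8.31, with Krt5 and Krt14 under it and Trp63 the 1 member that fell. The part of other cells in the results was not tested, and in such bulk samples fewer cells of a kind and less RNA per cell cannot be told apart.

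**Figure D4:**
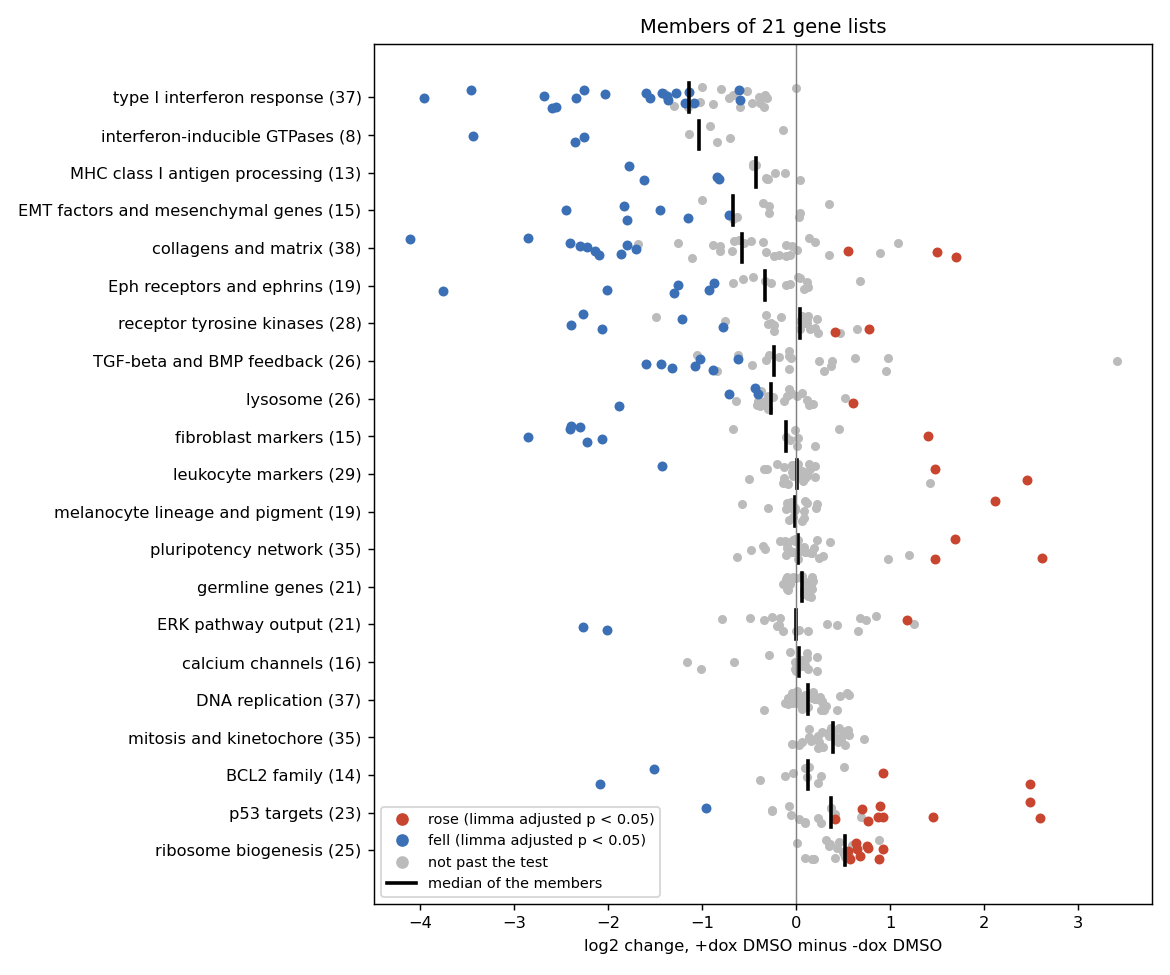
Log2 change (+dox minus -dox under DMSO) of every measured member of 21 gene lists, with the number of members in brackets, coloured by direction where past the limma test and grey where not, and a black bar at the list's median. The medians run from -1.14 for the type I interferon response to 0.52 for ribosome biogenesis, and the 37 DNA replication and 35 mitosis genes hold no coloured point.

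Receptors for growth factors of mesenchymal cells were among the genes that fell. Of 28 receptor tyrosine kinases 5 fell and 2 rose (median 0.04). Pdgfra, the platelet-derived growth factor receptor alpha, measured 8.59, 8.66 and 8.87 in -dox and 7.09, 6.22 and 6.60 in +dox cells (change -2.07, adjusted p = 0.00202 from limma). Fgfr1 measured 10.18, 8.81 and 8.97 against 7.83, 6.37 and 6.96 (change -2.27, adjusted p = 0.00711). Both passed without each DMSO array in turn, whereas Pdgfrb (change -2.40, adjusted p = 0.0229), Egfr (-1.22, 0.0472) and, among the rises, Met (0.77, 0.0136) and Kdr (0.41, 0.0487) reached an adjusted p of 0.0964, 0.181, 0.0604 and 0.179. The VEGF receptor Flt1 changed by -0.78 (adjusted p = 0.00886). Without -dox DMSO replicate 1 Egfr and Kdr lost their calls (adjusted p = 0.082 and 0.107).

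Of 19 Eph receptors and ephrins, which signal at cell contacts, 6 fell and 0 rose (median -0.33). Epha3 measured 6.47, 8.83 and 8.83 in -dox and 5.11, 3.21 and 4.55 in +dox cells, a fall of at least 3.18 (adjusted p = 0.02 from limma, 0.00678 without -dox DMSO replicate 1, up to 0.0901 with another array left out). Ephb3, with little spread, measured 8.47, 8.38 and 8.76 against 7.31, 7.22 and 7.32 (change -1.25, adjusted p = 0.00443) and passed without each array in turn. Epha4 fell by at least 1.75, and the ligands Efna1 and Efna2 changed by -0.92 and -0.87 (adjusted p = 0.0333, 0.0208 and 0.016). The count was 4 without -dox DMSO replicate 1 and 1 without -dox DMSO replicate 3.

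Among 26 genes of TGF-beta and BMP signalling and its feedback, 7 fell and 0 rose (median -0.24). BMP ligands signal through SMAD proteins and induce the ID factors and the inhibitor Smad6. The ligand Bmp4 measured 9.45, 10.18 and 10.47 in -dox and 8.36, 8.26 and 8.70 in +dox cells (change -1.59, standard error 0.28, adjusted p = 0.00769 from limma), without overlap and past the test with each DMSO array left out. Its targets Smad6, Id2 and Id3 changed by -1.44, -1.32 and -1.02 (adjusted p = 0.0219, 0.0221 and 0.0187), the ligand Tgfb3 by -1.08 and the SMAD co-repressors Ski and Skil by -0.88 and -0.62. The count was 8 without -dox DMSO replicate 1 and 1 without -dox DMSO replicate 3.

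Targets of p53, the factor that answers DNA damage and other stress, moved mostly upwards. Of 23 measured targets 9 rose and 1 fell (median 0.37), and without -dox DMSO replicate 1 the numbers were 9 and 0. Perp, a cell junction protein with a role in apoptosis, measured 8.26, 8.03 and 8.61 in -dox and 10.65, 10.99 and 11.04 in +dox cells, a 6.04-fold rise (log2 change 2.59, standard error 0.22, adjusted p = 2.07e-04 from limma). Pmaip1, the apoptosis activator NOXA, rose 5.62-fold, from 5.94, 5.58 and 5.24 to 8.16, 7.78 and 8.29 (adjusted p = 0.00588). Eda2r, a receptor of the TNF receptor family, rose by 1.46 and the exonuclease gene Aen by 0.92 (adjusted p = 0.00932 and 0.00851). The groups of these 4 genes did not overlap.

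Zmat3, an RNA-binding p53 target, measured 9.59, 9.51 and 9.51 against 10.52, 10.35 and 10.34 (change 0.87, adjusted p = 5.94e-04), Ccng1, cyclin G1, rose by 0.70, and Cdkn1a, the cell cycle inhibitor p21, by 0.89 (adjusted p = 0.0195, up to 0.0877 with 1 array left out). Btg2, an antiproliferative target, changed by -0.96 (adjusted p = 0.0439, 0.0669 without -dox DMSO replicate 1). The lowest count of rises with 1 DMSO array left out was 5, without +dox DMSO replicate 3.

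In the BCL2 family, which decides on cell death at the mitochondrion, 2 of 14 members rose and 2 fell. Pmaip1 and the survival factor Bcl2l1 rose, the latter from 8.97, 9.05 and 9.08 to 9.60, 10.03 and 10.25 (change 0.93, adjusted p = 0.00602 from limma). The death activators Bmf and Bcl2l11 (BIM), both known to be held down by ERK signalling, changed by -2.09 and -1.51 (adjusted p = 0.042 and 0.0355). Neither passed without -dox DMSO replicate 1 (adjusted p = 0.0946 and 0.0854). The retinoblastoma gene Rb1 measured 9.42, 9.24 and 9.32 in -dox cells and 10.40 on all 3 +dox arrays (change 1.07, adjusted p = 3.68e-04).

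Genes of ribosome biogenesis, which make and assemble ribosomal RNA in the nucleolus, were higher in +dox cells. Of 25 measured, 9 rose and 0 fell, with a median change of 0.52 and all 25 changes above 0, the lowest at 0.01. For 18 of the 25 the groups did not overlap, against 11.3% of all genes that were higher without overlap. Wdr43, a subunit of the small ribosomal subunit processome, measured 9.17, 9.13 and 9.15 against 9.65, 10.10 and 9.96 (change 0.75, standard error 0.12, adjusted p = 0.00498 from limma). The nucleolar GTPase Gnl3 measured 10.10, 10.03 and 9.95 against 10.55, 11.08 and 11.09 (change 0.88, adjusted p = 0.00865), and Nop16 rose by 0.77 and the box C/D protein Nop58 by 0.65. The same number, 9, rose without -dox DMSO replicate 1 (median 0.54), but 3 without +dox DMSO replicate 2 (median 0.44). Under trametinib the median was 0.01 and none passed the test.

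Genes of mitosis and DNA replication did not pass the test. None of 35 genes of mitosis and the kinetochore rose or fell in the limma fit, and none had an unadjusted p under 0.05. Their median change of 0.39 became 0.17 without -dox DMSO replicate 1, on which they were lowest, with a list median of -0.40 relative to the -dox mean. None of 37 DNA replication genes passed either, with 1 higher at an unadjusted p under 0.05 and a median of 0.13. Of 15 D cyclins, CDK inhibitors and RB family genes, 2 rose and 0 fell (median 0.01), also without -dox DMSO replicate 1. Of 21 genes of ERK pathway output 1 rose and 2 fell (median -0.01). The early response factor Egr2 changed by -2.27, from 8.73, 8.46 and 9.30 to 5.79, 6.83 and 7.05 (adjusted p = 0.00238), and passed without each DMSO array in turn. Spry4, a feedback inhibitor, changed by 1.18 (adjusted p = 0.0482, 0.12 without -dox DMSO replicate 1).

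Genes of the melanocyte lineage showed 1 rise. Rab27a, a GTPase of melanosome transport, measured 3.98, 3.85 and 3.92 in -dox and 6.79, 5.35 and 5.95 in +dox cells and rose by at least 1.17 (adjusted p = 0.00153 from limma). Mitf measured 7.13, 7.84 and 7.66 against 6.88, 6.56 and 7.47, with a change of -0.57 (adjusted p = 0.294). These groups overlapped only through -dox DMSO replicate 1, and without that array every +dox array was lower. Mitf did not pass in any alternative fit, including the one without that array (lowest adjusted p = 0.0874 from limma). Pmel and Sox10 changed by -0.04 and -0.09 (adjusted p = 0.908 and 0.795). Of the 19 measured genes 12 were under the background level in both groups.

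Among 18 neural crest stem-like genes 2 fell and 1 rose, against 3.28% and 2.87% of all genes. The adhesion molecule Ncam1 measured 10.18, 10.40 and 10.42 in -dox and 8.41, 8.38 and 7.97 in +dox cells (change -2.08, standard error 0.19, adjusted p = 2.87e-04 from limma), and Msx2 fell by at least 0.05. Nrg1, a ligand of ERBB receptors, rose by 1.06 (adjusted p = 0.0406, up to 0.147 with 1 array left out). Ngfr, the receptor CD271, ranged widely within both groups (8.45, 6.20 and 7.06 against 7.99, 7.14 and 6.79) and its change of 0.07 did not pass (adjusted p = 0.96). No calcium channel gene of 16 measured passed the limma test, with 0 higher and 2 lower at an unadjusted p under 0.05. Cacna1a, a P/Q-type subunit, passed as lower without -dox DMSO replicate 1 (adjusted p = 0.0207) and under the replicate block (0.042). The T-type subunits Cacna1g and Cacna1h were under the background level on all 6 arrays, and Cacna1i is not analysed here.

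The same cell states after trametinib gave a comparison on 6 other arrays. There 614 genes (3.37%) passed the test of +dox against -dox, 355 higher (1.95%) and 259 lower (1.42%). Of the 201 genes that rose over 2-fold under DMSO, 190 (94.5%) had the same sign under trametinib and 83 also passed there, with a median change of 1.46 under DMSO and 0.90 under trametinib. Of the 273 that fell over 2-fold, 227 (83.2%) had the same sign and 83 also passed, with medians of -1.51 and -0.71. Since the genes were chosen by their change under DMSO, a smaller change in other arrays is given as a description only. The share of all genes with the same sign is not given here, so the shares of same signs have no baseline. The difference between the effects, the interaction in the limma fit, passed for 60 genes (0.33%), 47 with the larger signed effect under trametinib (0.258%) and 13 with the smaller (0.0715%), 26 of them among these 474. That count was 141 with the replicate block and between 13 and 200 with 1 of the 12 arrays left out.

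Mpzl2 rose by at least 6.01 under trametinib. Srgn changed by 4.19, Col12a1 by -3.34, Col3a1 by -3.58, Col4a1 by 2.36 and Perp by 1.73. All 6 passed the test and none had a difference from the DMSO effect that passed (adjusted p for the difference from 0.184 for Col4a1 to 0.924 for Srgn, limma). Among collagens and matrix 9 fell and 2 rose under trametinib. Mfap3l, a membrane protein, rose under DMSO from 7.48, 7.25 and 7.53 to 9.47, 9.72 and 9.63 (change 2.19, adjusted p = 9.15e-05) but changed by 0.28 under trametinib, and the difference of -1.91 passed (adjusted p = 0.00752). Cd3g, a T cell receptor subunit, stayed near or under the background level under DMSO (3.12, 3.32 and 3.62 against 4.59, 4.98 and 4.91) and rose by at least 4.15 under trametinib, where its -dox levels were also under the background. The test of the difference passed (adjusted p = 2.34e-04). Of the interferon genes named above, the difference passed for Ifit1, Samd9l, Oasl2 and Rsad2, at 4.65, 2.30, 3.43 and 3.59 (adjusted p = 0.0217, 0.00752, 0.0306 and 0.0345). It did not pass for Ifit3, Usp18 or Irf7, although the difference for Ifit3, 4.55, was close in size to that for Ifit1.

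**Figure D5:**
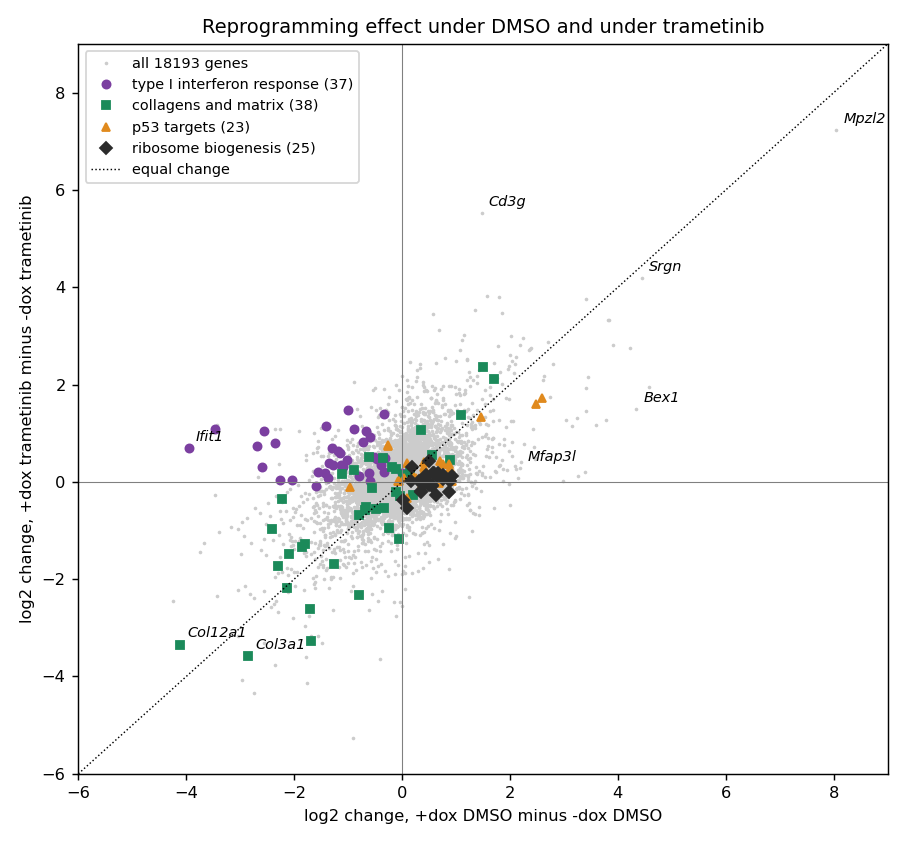
Log2 change of +dox against -dox cells under DMSO (horizontal) and under trametinib (vertical) for 18193 genes, with 4 gene lists marked and the line of equal change dotted. Mpzl2, Srgn, Col12a1 and Col3a1 lie near the line, most interferon members lie left of 0 and above 0, and the ribosome biogenesis genes lie right of 0 near the horizontal axis.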

How the data were processed

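RNA was measured on 12 arrays (Affymetrix Mouse Genome expression arrays, 3 for each of 4 groups), and groups were taken from the sample labels. The deposited log2 values were made by the authors with RMA in Chipster (background correction, quantile normalisation and summarisation per probe set; version not given in the sources used here) and were used unchanged. Of 45101 probe sets 34945 named 1 gene, 932 named several, 9211 were unnamed in the platform annotation used and 13 control probe sets that name a gene were left out. Where a gene had several probe sets, the brightest by its 12-array mean stood for it, which left 18193 genes. The group means of all 12 arrays entered 1 linear model with moderated variances (limma 3.58.1, R 4.3.3), so that the trametinib arrays share in the estimate of the spread, and the Benjamini-Hochberg method was applied across every gene, with 0.05 as the threshold. The background level was the 95th percentile of the means of 86 receptor probe sets. Figures were drawn with matplotlib 3.10.9 from tables made in Python 3.11.15.

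Genes were named as the 16 largest rises and 16 largest falls past the test whose groups did not overlap and whose higher mean exceeded the background level, up to 4 members of each gene list in its main direction and 2 in the other, the 6 genes ranked first by p in the test of the trametinib effect minus the DMSO effect, genes the study names for reprogramming, the melanocyte lineage or T-type channels, and Bex1. Genes cited from list counts outside this rule were chosen after their values were seen. The 43 gene lists and the genes described were chosen with earlier results of these data known. Arrays with the same replicate number deviated together from their group means (correlation 0.344, 0.17 and 0.225 for the 3 numbers under DMSO and 0.286, 0.212 and 0.271 under trametinib), a pairing read from the data and not stated in the labels. Alternatives were the replicate number as a block, the 6 DMSO arrays alone, other choices of probe set, scaling, filter, weights and threshold, and leaving out each array in turn. The fitting was tested on simulated data. The number of arrays, 3 a group, limits the precision.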

Additional observations from a re-analysis of the deposited data

Results flagged for a closer look

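The difference between the effect of doxycycline under trametinib and under DMSO (log2, trametinib minus DMSO) passed the limma interaction test for 13 of the genes picked by the naming rule. That rule took in the 6 genes with the smallest p in this same test, so the count is a description only. Over all genes the test passed for 60 (0.33%). All differences are fitted values. It was 4.65 for Ifit1, 3.43 for Oasl2 and 2.30 for Samd9l among the interferon-response genes, and 4.6, 3.44 and 3.36 for the interferon-inducible GTPases Iigp1, Gbp2 and Gbp3. With group means under the background level set to it, the value for Iigp1 was 3.40, and that for Ifit1 stayed at 4.65. For these 6 genes the effect was below 0 under DMSO and above 0 under trametinib, where none of the 6 passed the test.

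The early response factor Egr2 differed by 2.63, the GTPase Diras2 by 2.26, the Wnt inhibitor Frzb by 2.44, the amino acid transporter Slc6a20a by 1.5 and the kinase Prkcb by 1.38. With the background level as floor the values of Egr2, Diras2 and Frzb were 2.27, 2.20 and 2.04, and the means of Slc6a20a and Prkcb lay under it in all 4 groups, so that no difference is measured above it. Mfap3l had a difference of -1.91, a rise under DMSO that was smaller under trametinib. Cd3g had a fitted difference of 4.05, with 3 of its 4 group means under the background level, and levels of 8.78, 9.43 and 8.81 on the +dox trametinib arrays against 3.57, 3.61 and 3.27 on the -dox trametinib arrays. Of the other subunits read here, Cd3d measured 5.01, 5.5 and 5.26 on the +dox and 4.85, 4.94 and 4.90 on the -dox trametinib arrays, without overlap. Cd3e, at 5.58 to 5.86 and 5.59 to 5.87 on these arrays, overlapped. Ptprc, a marker of all leukocytes, was under the background level in the DMSO groups, and its levels under trametinib are not given here. Whether other cells contributed to the Cd3g levels was not tested.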

How the results depend on the processing

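None of the 125 named genes past the test changed direction under any alternative tried, and none of the 1118 did without -dox DMSO replicate 1. Under the replicate block no direction could change, because every group holds each replicate number once and the fitted changes stay the same. The same holds for the fit with only the 6 DMSO arrays and for those without a trametinib array. It also holds for the other moderation of the variances and for the filter on the background level. With probe sets tested one by one, the brightest probe set of each gene was read, so its change stayed the same too. The 522 rises and 596 falls became 248 and 302 with only the 6 DMSO arrays, 1719 and 2367 with array weights, 174 and 192 at an adjusted p under 0.01, and 888 and 964 at 0.1. Centring each array on its median moved the median change of all genes from 0.01 to 0.11, raised the rises to 1148 and the share of rises from 46.7% to 71.2%. The 201 rises over 2-fold became 304 with probe sets tested one by one, 110 at 0.01 and 409 at a fold of 1.5, and the 273 falls became 468 with array weights, 142 at 0.01 and 492 at a fold of 1.5. The 614 genes under trametinib became 1427 with array weights, 248 at 0.01 and 979 at 0.1. The 60 genes that differed between the effects became 217 with centring, 1066 with array weights, 11 at 0.01 and 142 at 0.1.

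With 1 array left out, rises ranged from 204 to 638 (lowest without +dox DMSO replicate 3), falls from 245 to 722 (lowest without +dox DMSO replicate 2), rises over 2-fold from 123 to 266, falls over 2-fold from 150 to 338, genes under trametinib from 295 to 964, and differences from 13 to 200 (lowest without +dox DMSO replicate 3, highest without -dox DMSO replicate 1). With the replicate block 1578 genes passed, including 1093 of the 1118, and the differences between effects rose to 141. The cause of these shifts was not tested. Genes under the background level have bounds only, and 3 arrays a group limit what small changes can be seen.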

Other observations

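Adhesion and protease genes changed singly. Of 19 integrin subunits Itga4, which binds fibronectin and VCAM1, rose by 2.08 (adjusted p = 0.00358 from limma), while Itgb5 and Itgb3 changed by -1.31 and -0.98 (adjusted p = 0.0146 and 0.0266, up to 0.0657 and 0.115 with 1 DMSO array left out). No integrin fell without -dox DMSO replicate 3. Of 23 matrix proteases and inhibitors 3 fell and 1 rose: Mmp19 changed by -2.92, the plasminogen activator Plat by -2.34, the inhibitor Timp2 by -0.87 and Adam19 by 1.00 (adjusted p = 0.00129, 0.0189, 0.0292 and 0.0254). Mmp19 passed with each DMSO array left out, whereas Plat, Timp2 and Adam19 reached 0.0807, 0.0945 and 0.108, and without -dox DMSO replicate 2 the counts were 1 fall and 0 rises. In the lysosome list of 26 genes 4 fell and 1 rose, with the cathepsin Ctsh at -1.89 and the saposin precursor Psap at -0.71. Lysosomal falls numbered 6 without -dox DMSO replicate 1, and without -dox DMSO replicate 2 there was 1.

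In store-operated calcium entry and calcineurin, 3 of 27 genes rose and 2 fell, against 2 and 1 without -dox DMSO replicate 1 and 0 falls without -dox DMSO replicate 3. Trpc1, a cation channel, rose by 1.11 (adjusted p = 4.35e-04 from limma) and the calcineurin catalytic subunit Ppp3cb by 0.70 (adjusted p = 0.00746). The call of Ppp3cb rests on its brightest probe set, since with the mean of its probe sets the change was 0.10 (adjusted p = 0.614 from limma). Notch4 rose by 1.08 (adjusted p = 0.00597), the single call among 17 Notch pathway genes with all arrays, beside 1 fall without -dox DMSO replicate 1, and Hoxa10 changed by -1.04 (adjusted p = 0.0028), the single call among 30 HOX genes with all arrays, against 1 rise and 2 falls under the replicate block. The chemokine Cx3cl1 changed by -1.55 (adjusted p = 5.02e-04) and was the single call among 26 cytokines and chemokines with all arrays, against 2 falls without -dox DMSO replicate 1 and 1 rise and 2 falls under the replicate block. Of 22 invasive melanoma and YAP target genes 1 rose and 1 fell, with a median of 0.288, and of 0.125 without -dox DMSO replicate 1. The rise was of the TEAD factor Tead4, by 1.59 (adjusted p = 0.00411). The glycolytic enzyme Pfkp rose by 1.10 and Pfkfb4, a regulator of glycolysis, changed by -0.66 (adjusted p = 0.003 and 0.00968). Over all genes 2.87% rose and 3.28% fell, so a single rise or a single fall in lists of these sizes is not read as a result about the list.

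Of 32 Wnt pathway genes 3 rose and 1 fell, against 2.87% and 3.28% of all genes. The counts were 1 and 3 without -dox DMSO replicate 1, and 0 rose without -dox DMSO replicate 3 or without +dox DMSO replicate 3. None of 23 imprinted genes, 20 cholesterol synthesis genes, 30 nuclear respiratory chain genes or 19 Polycomb and DNA methylation genes passed the limma test. At an unadjusted p under 0.05, 1 imprinted gene was higher, 1 cholesterol synthesis gene lower, 3 respiratory chain genes higher, and of the Polycomb and DNA methylation genes 2 were higher and 1 lower.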
